A study of Mus musculus with 11 samples.

Results

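Scavenger receptors are described here through 8 genes, Msr1, Marco, Colec12, Cd68, Scarb1, Scarb2, Olr1 and Lrp1, taken by name from an expression table of 37583 genes. All 8 were found, and all 8 passed the filter on low read counts that left 15116 genes for testing. They were measured by RNA sequencing in mononuclear phagocytes, the family of macrophages, dendritic cells and monocytes. The labels call the cells CX3CR1+ in every library, after the fractalkine receptor. The cells were sorted in 2 rounds from the epididymis of mice. Sperm mature on their way through this duct, which was divided into the initial segments (IS), next to the testis, the caput/corpus, and the cauda, a storage site for sperm. The libraries numbered 4 for IS, 3 for caput/corpus and 4 for cauda. Every group carried the same genotype, CX3CR1 EGFP +/-, in which EGFP is driven by the gene of the fractalkine receptor, and the same age, 12 weeks. The labels name no treatment, and no group lacked the transgene. Each library pooled cells from 4 epididymides. The labels do not say which animals these came from, so the p-values below measure the spread between libraries, which may be partly technical.

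Scavenger receptors are membrane proteins that bind polyanionic and modified ligands, among them oxidized lipoproteins, bacterial surfaces and dying cells, and carry many of them to the lysosome. They are grouped into classes by structure and not by descent: Msr1, Marco and Colec12 share a collagen-like stalk (class A), Scarb1 and Scarb2 are loop-shaped relatives of Cd36 (class B), Cd68 is a mucin-like lysosomal glycoprotein (class D), Olr1 is a lectin-like receptor (class E), and Lrp1 is a very large endocytic receptor (class L). Tissue macrophages use them to clear debris, and in the epididymis such cells lie in and around the epithelium that lines the sperm duct.

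Promoter sequences were matched by symbol for 5 of the 8 members, Marco, Cd68, Scarb2, Olr1 and Lrp1. Upstream windows of 3 of these are shown, for Cd68 because it was the most abundant member, for Olr1 because it shared motif letters with Cd68, and for Scarb2 because its level differed between regions. Each window holds the 250 bases before the annotated start, from RefSeq on GRCm38.p6, while the submitters' processing notes name build mm9. Capitals mark matches, on either strand, to the core of the site of PU.1 (GAGGAA), the myeloid factor encoded by Spi1, or to the AP-1 site (TGANTCA), bound by dimers of Fos and Jun proteins. The windows lie at chr11:69666171-69666420 (Cd68), chr6:129507166-129507415 (Olr1) and chr5:92505658-92505907 (Scarb2), all on the minus strand, and are written 5′ to 3′ in the direction of the gene.
Cd68: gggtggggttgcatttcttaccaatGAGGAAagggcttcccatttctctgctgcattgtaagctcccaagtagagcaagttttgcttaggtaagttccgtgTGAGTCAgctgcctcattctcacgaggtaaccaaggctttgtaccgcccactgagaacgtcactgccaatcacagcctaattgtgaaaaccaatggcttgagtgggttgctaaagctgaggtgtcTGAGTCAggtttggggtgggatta
Olr1: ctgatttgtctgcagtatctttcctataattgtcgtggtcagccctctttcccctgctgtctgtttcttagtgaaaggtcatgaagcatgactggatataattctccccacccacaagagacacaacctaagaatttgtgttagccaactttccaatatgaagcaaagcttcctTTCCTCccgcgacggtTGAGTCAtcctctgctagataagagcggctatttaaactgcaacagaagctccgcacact
Scarb2: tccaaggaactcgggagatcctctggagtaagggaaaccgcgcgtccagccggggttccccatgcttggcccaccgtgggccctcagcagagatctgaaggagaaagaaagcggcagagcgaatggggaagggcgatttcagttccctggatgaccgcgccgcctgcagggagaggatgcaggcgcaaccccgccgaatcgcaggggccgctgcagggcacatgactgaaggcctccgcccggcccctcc
The Cd68 window held GAGGAA at position -225 from the start and TGANTCA at -149 and -24. The Olr1 window held the PU.1 letters on the opposite strand at -76 and TGANTCA at -60. Of all 32851 windows of this length, 23.3% held GAGGAA and 6.75% held TGANTCA. Marco also held GAGGAA, at -146. The windows of Scarb2 and Lrp1 held neither. An E-box (CACGTG, in 6.02% of windows) and a sterol response element (TCACNCCAC, in 1.05%) were in none of the 5 windows, and no matches overlapped one another.

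Reads on genes ranged from 16873180 to 31737132 per library. Levels are RPKM, which divides reads by the length of the gene and the size of the library. Comparisons of RPKM between genes are only approximate here, because the difference between the 2 title series, described below, changed with gene length. For 3 of the 11 libraries (cauda replicate 1, caput/corpus replicate 1 and IS replicate 2) the deposited count file and the expression column of the same name held different reads, and the difference crossed regions. The IS replicate 2 column equalled the count file of caput/corpus replicate 1, the caput/corpus replicate 1 column equalled that of cauda replicate 1, and the cauda replicate 1 column equalled no file. In both matches the last number in the title of the file's sample was the number that opens the column's name. The summed RPKM of 13 epididymal epithelium markers was 2280 in the IS replicate 2 column, against 945 to 1803 in the other IS columns, and 461 in that of caput/corpus replicate 1, against 232 and 273 in the other 2. It was 11.5 in the cauda replicate 1 column, below the 22.3 to 30.4 of the other cauda columns. Lcn5, 1 of the 13 markers, was 1.76 RPKM in the IS replicate 2 column (0.854 to 1.72 in other IS columns). It was 51.8 in that of caput/corpus replicate 1 (46 and 99.1 in the other 2). The mast cell marker Cpa3 was 3.36 and 155 in these 2 columns, against 4.84 to 15.5 in other IS and 152 and 115 in other caput/corpus columns. By these markers both columns resembled their named region, and the count files placed their reads under another region. Why the sources differ was not settled. The values here follow the named columns, and the calls with the counts as filed are given beside the results. Cauda replicate 1 stood apart: reads fell on 13434 genes, compared with 17053 to 18837 elsewhere, and its score on the first principal component, which held 42% of the variance, was 129, compared with -56.5 to 35.4 for the other 10. Calls of the 8 receptors are therefore given with and without it, and counts over gene lists are given without it where they differ. Defining macrophage markers had reads in every library, with 0 of 11 at 0 anywhere.

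The 8 receptors spanned a wide range of levels. Cd68, also called macrosialin, a marker of phagocytes found mostly in late endosomes and lysosomes, made up 74.0% to 88.1% of the summed RPKM of the 8 members in a library. In IS the order continued with Msr1 (65.8 ± 18.1 RPKM, SD, n = 4), Scarb2 (57.5 ± 2.73), Lrp1 (38.5 ± 23.7), Scarb1 (10.6 ± 2.72), Colec12 (4.49 ± 2.67), Marco (0.858 ± 1.01) and Olr1 (0.454 ± 0.506). In IS the libraries of Msr1, Scarb2 and Lrp1 overlapped, and those of Marco overlapped with both Colec12 and Olr1. The order of these means was not the same in the 2 title series, the libraries whose titles begin Maj3 or Maj4. The Maj3 means in IS were 80.1 RPKM for Msr1, 58.0 for Scarb2 and 18.3 for Lrp1. Those of Maj4 ran the other way, at 51.5 for Msr1, 57.0 for Scarb2 and 58.7 for Lrp1. Marco lay above Olr1 in Maj3 (1.72 and 0.135 RPKM) and below it in Maj4 (0 and 0.773). In cauda, Msr1 (17.3 ± 3.74 RPKM, n = 4) stood lower in the order, overlapping Scarb1 (17.7 ± 2.86) and below Scarb2 (42.1 ± 6.21) in every library. The plot of levels by library shows these values for each receptor.

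**Figure D1:**
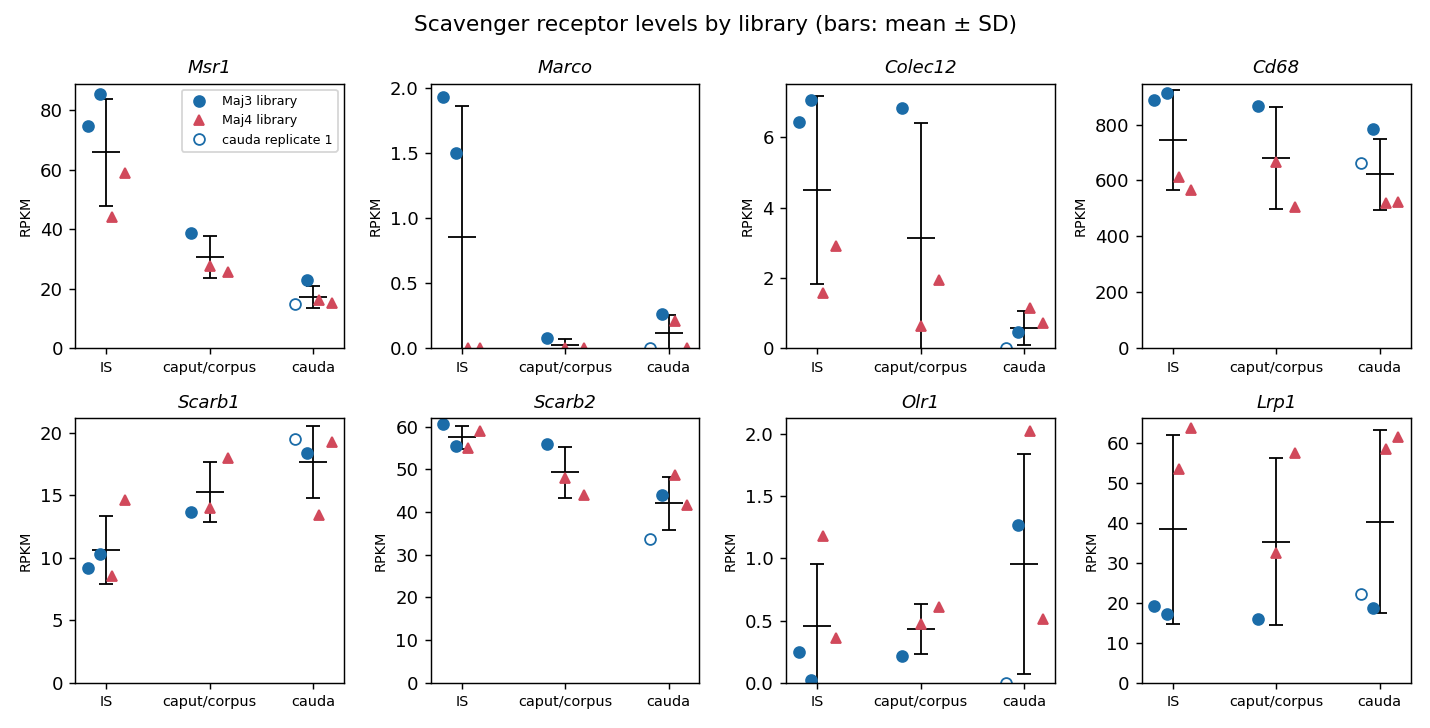
RPKM of each of the 8 scavenger receptors (a panel each, linear axis from 0) in the libraries of IS, caput/corpus and cauda; points are libraries, circles those of series Maj3 and triangles those of Maj4, the open circle is cauda replicate 1, and bars are mean ± SD, cut off at 0. Msr1 falls from IS through caput/corpus to cauda without overlap, Scarb1 has its lowest mean in IS, and Lrp1 separates the series in every region.

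Differences between regions were tested with the edgeR quasi-likelihood test, adjusted over all 15116 genes by Benjamini-Hochberg, and adjusted p values under 0.05 count as called. Between IS and caput/corpus, 1 of the 8 members was called, Msr1, against 3.78% of all tested genes. Between IS and cauda, 3 were called, Msr1 and Scarb2 higher in IS and Scarb1 lower, against 16.5% of all tested genes. Between cauda and caput/corpus only Msr1 was called, lower in cauda, against 0.615% of all tested genes. The same members were called without cauda replicate 1, where the shares of all 14996 genes tested were 9.02%, 20.8% and 1.37%. The median log2 difference of the 8 members and of all tested genes was 0.26 and 0.02 for IS minus caput/corpus, 0.34 and 0.05 for IS minus cauda, and 0.01 and -0.02 for cauda minus caput/corpus. The 3 comparisons share libraries, so they are not independent of one another.

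**Figure D2:**
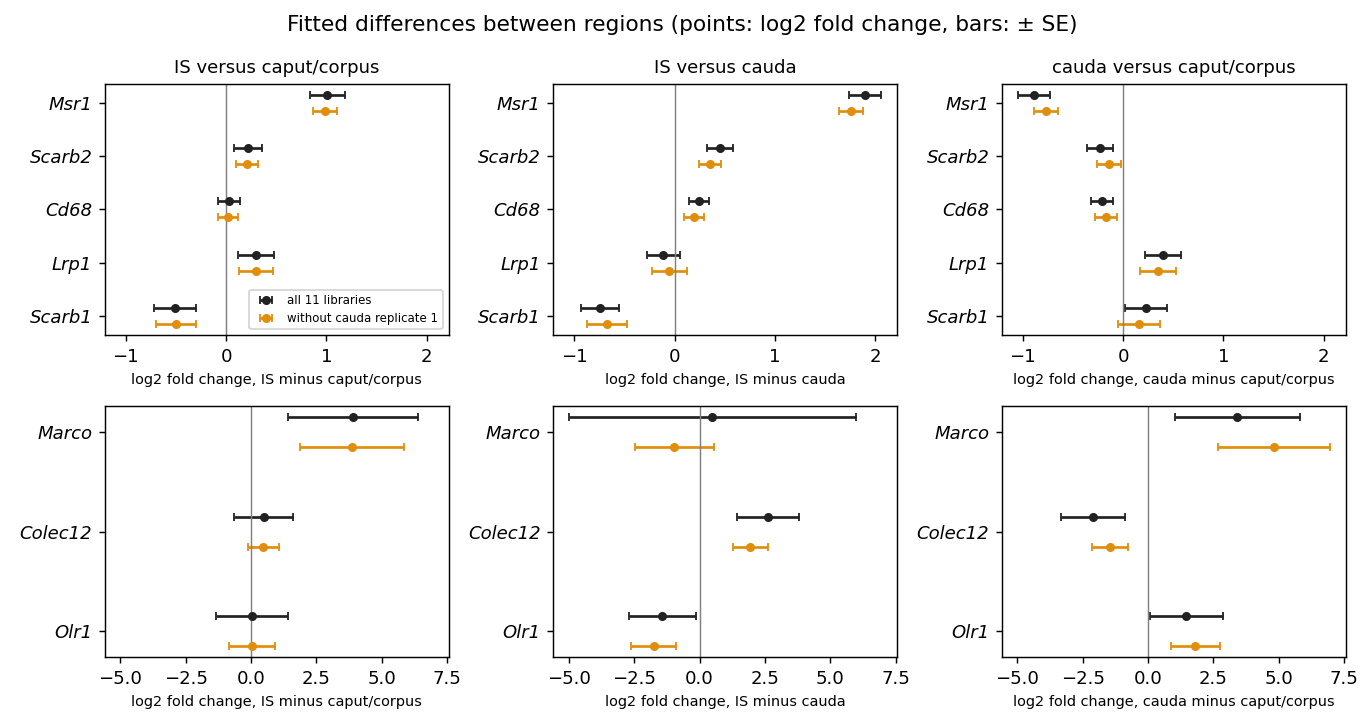
Fitted log2 fold changes (points) ± SE (bars) of the 8 receptors for IS minus caput/corpus, IS minus cauda and cauda minus caput/corpus, with all 11 libraries (black) and without cauda replicate 1 (orange); the lower row has a wider axis for the 3 receptors with few reads. Msr1 lies furthest from 0 for its error in all 3 comparisons, at 1.01, 1.90 and -0.89 with all libraries.

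Msr1 (ENSMUSG00000025044), the class A macrophage receptor for modified LDL and bacterial lipid components, differed between all 3 regions. Its level was 74.8, 85.4, 44.1 and 59.0 RPKM in IS replicates 1 to 4. It was 38.8, 27.5 and 25.5 RPKM in caput/corpus and 14.9, 22.8, 16.1 and 15.3 RPKM in cauda. No library of one region overlapped with another region: every IS library lay above every caput/corpus library, and every caput/corpus library above every cauda library. The caput/corpus mean was 30.6 ± 7.19 RPKM (SD, n = 3). In such bulk samples, fewer cells that carry a transcript cannot be told apart from less transcript per cell.

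For Msr1 the log2 difference between IS and caput/corpus was 1.01 ± 0.17 (SE, edgeR adjusted p = 0.0100), a 2.01-fold higher level in IS. Between IS and cauda it was 1.90 ± 0.16 (adjusted p = 8.36e-05), a 3.72-fold higher level in IS. Without cauda replicate 1 these were 0.99 (adjusted p = 0.00117) and 1.76 (adjusted p = 2.51e-05). The order of regions also held within each title series. The Maj3 means were 80.1, 38.8 and 18.8 RPKM for IS, caput/corpus and cauda, and the Maj4 means were 51.5, 26.5 and 15.7. The smaller step, from caput/corpus to cauda, was the least certain, at -0.89 ± 0.16 (adjusted p = 0.0439). It was called in 2 of the 11 fits that each left out 1 library, with adjusted p up to 0.279, and was not called with TMM factors computed over all genes (adjusted p = 0.0505). Leaving out caput/corpus replicate 3 ended the call between IS and caput/corpus (adjusted p = 0.0519), as did a fit without the series term (adjusted p = 0.0637). Maj3 alone, with a lone caput/corpus library, called no Msr1 difference (IS minus cauda 2.14, adjusted p = 0.0868). With the counts as filed no Msr1 difference was called: IS minus caput/corpus was 0.26 (adjusted p = 0.855), IS minus cauda 1.29 (0.115) and cauda minus caput/corpus -1.03 (0.76). In the 8 libraries that both sources hold alike, the IS differences were 0.96 (adjusted p = 0.0126) and 1.72 (0.000224), while the cauda step of -0.76 was not called (0.11).

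The genes with a profile most like that of Msr1 were Xlr, Gatm and Cd81. Likeness is the root mean square difference of log2(CPM + 1), each gene centred on its own mean over the 11 libraries. CPM is reads scaled to library size. The added 1 narrows the differences of genes at low levels, and Xlr was the lowest of these genes in RPKM. It was 0.204 for Xlr, 0.223 for Gatm and 0.255 for Cd81, against a median of 0.948 over all tested genes. Gatm, the first enzyme of creatine synthesis, averaged 275, 137 and 86.4 RPKM in IS, caput/corpus and cauda. Cd81, a tetraspanin, averaged 761, 407 and 245 RPKM, and Xlr averaged 4.78, 2.07 and 0.826. In the 10 libraries other than cauda replicate 1, Xlr and Gatm were again among the 3 nearest and Galnt12 replaced Cd81.

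Marco (ENSMUSG00000026390), the class A receptor of resident macrophages for unopsonized bacteria and particles, had few reads in any library. It had 107 and 78 reads in IS replicates 1 and 2, and 0 in IS replicates 3 and 4. It had 4, 0 and 0 reads in caput/corpus and 0, 15, 7 and 0 in cauda. Most Marco reads were thus in the IS libraries of Maj3, which held 185, at 1.93 and 1.5 RPKM, and the 2 IS libraries of Maj4 had none. A count of 0 allows up to 0.0823 RPKM in IS replicate 3 and 0.0657 in IS replicate 4 (3 reads, counting error only). No difference between regions was called: the log2 difference between IS and cauda was 0.49 ± 5.48 (adjusted p = 0.965) with all libraries and -0.96 ± 1.5 (0.714) without cauda replicate 1. The fitted sign of the latter is opposite to that of the means of the same libraries, 0.858 RPKM in IS and 0.155 in cauda, so neither value gives a direction.

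Colec12 (ENSMUSG00000036103), a class A receptor that ends in a C-type lectin domain, was lower in every cauda library than in every IS library. The IS libraries measured 6.43, 7.07, 1.58 and 2.90 RPKM, those of caput/corpus 6.83, 0.625 and 1.94 RPKM, and those of cauda 0, 0.445, 1.13 and 0.713 RPKM. The library without a read was cauda replicate 1, where up to 0.0318 RPKM is allowed by a count of 0. Within IS and caput/corpus, the Maj3 libraries lay at 6.43 to 7.07 RPKM and the Maj4 libraries at 0.625 to 2.90. The log2 difference between IS and cauda was 2.61 ± 1.19 (adjusted p = 0.172), and 1.93 ± 0.67 (adjusted p = 0.0684) without cauda replicate 1. It was not called by edgeR, and was called by DESeq2 (adjusted p = 0.038) and by limma on log2(RPKM + 1) (adjusted p = 0.0196). Colec12 is known from endothelium and stroma as well as macrophages, so marker lists of those cells are given beside it. The summed RPKM of 8 fibroblast markers was 4.83 to 132 in IS, 14.3 to 119 in caput/corpus and 5.18 to 24.3 in cauda, and 1 of the 8 was called higher in IS than in cauda by edgeR. In IS replicates 1 to 4 the fibroblast sum was 4.83, 132, 31.8 and 16, so the lowest and the highest sums stood with the 2 highest Colec12 levels. In caput/corpus it was 119, 14.3 and 34.9, in the same order as Colec12. In cauda it was 6.04, 24.3, 21.7 and 5.18. The summed RPKM of 9 endothelial markers was 6.09 to 23.1 in IS, 8.12 to 11.7 in caput/corpus and 1.69 to 34.0 in cauda, where 6 of the 9 had 0 reads in replicate 1. Of the 8 endothelial markers tested, 1 was lower in IS than in cauda, against 16.5% of all tested genes called. Without cauda replicate 1, 2 were lower, against 20.8%. The part of these cells in the Colec12 values was not tested.

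Scarb1 (ENSMUSG00000037936), the HDL receptor that takes up cholesteryl esters, ran opposite to Msr1 between IS and cauda. The levels were 9.16, 10.3, 8.51 and 14.6 RPKM in the IS libraries, 13.7, 14.0 and 18 RPKM in those of caput/corpus, and 19.5, 18.4, 13.4 and 19.3 RPKM in those of cauda. IS replicate 4 was the highest IS library and overlapped with both other regions, through caput/corpus replicates 1 and 2 and cauda replicate 3. Relative to cauda, Scarb1 was lower in IS by a log2 difference of -0.74 ± 0.19 (edgeR adjusted p = 0.0265), or 1.67-fold. With cauda replicate 1 left out it was -0.67 (adjusted p = 0.0385). The call was kept in 6 of the 11 fits that left out 1 library, with adjusted p up to 0.0868, being lost without IS replicate 1, 2 or 3 or cauda replicate 2 or 4. It was lost with the counts as filed (-0.50, adjusted p = 0.257) and in the 8 libraries held alike by both sources (-0.67, 0.0987). It was also lost in a fit of the IS and cauda libraries only (-0.68, 0.0691), in Maj3 alone (-0.91, 0.13) and in Maj4 alone (-0.50, 0.379). The difference between IS and caput/corpus was -0.51 ± 0.21 (adjusted p = 0.266) and that between cauda and caput/corpus 0.23 ± 0.21 (0.75), neither called.

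Within-library ratios of Msr1 to Scarb1 and to Cd68 separated the regions, as the levels of Msr1 alone already did. The Msr1 RPKM was 8.16, 8.29, 5.17 and 4.05 times that of Scarb1 in the IS libraries. It was 2.84, 1.96 and 1.41 times that of Scarb1 in caput/corpus and 0.761, 1.24, 1.20 and 0.794 times in cauda. Per 100 RPKM of Cd68 there were 7.18 to 10.4 RPKM of Msr1 in IS, 4.13 to 5.04 in caput/corpus and 2.24 to 3.10 in cauda. Neither ratio overlapped between regions, as the plot of ratios shows, and neither was tested, since both follow from the levels above.

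**Figure D3:**
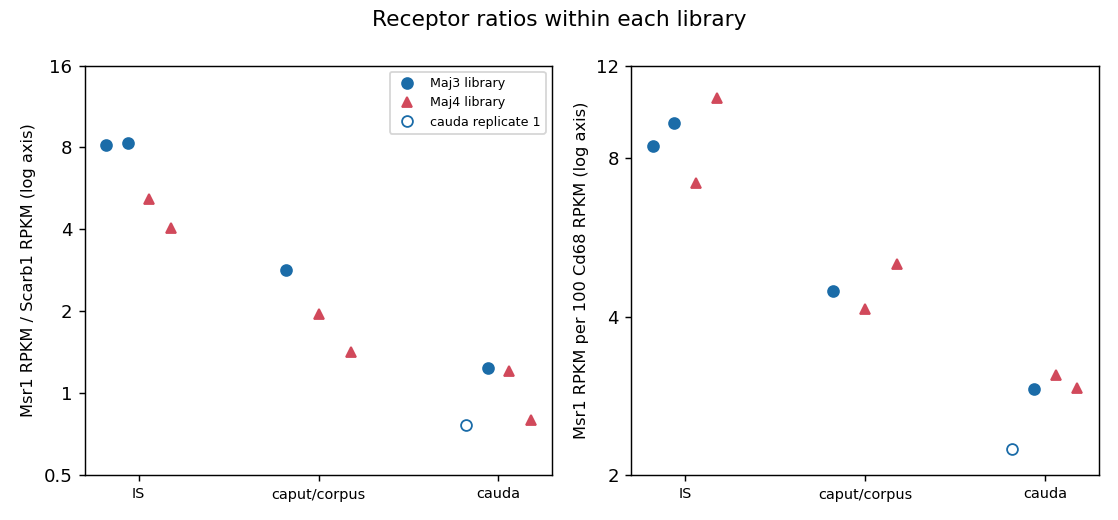
Ratio of Msr1 to Scarb1 RPKM (left, log axis) and Msr1 RPKM per 100 RPKM of Cd68 (right, log axis) in each library by region; circles are Maj3, triangles Maj4, and the open circle is cauda replicate 1. Msr1 exceeds Scarb1 at least 4.05 times in IS and lies between 0.761 and 1.24 times Scarb1 in cauda.

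Scarb2 (ENSMUSG00000029426), an abundant membrane protein of the lysosome, was the steadiest member in IS. The IS libraries measured 60.6, 55.4, 55.1 and 59.0 RPKM, those of caput/corpus 55.9, 47.9 and 44.1 RPKM, and those of cauda 33.8, 44.1, 48.7 and 41.7 RPKM. All IS libraries lay above all cauda libraries, while caput/corpus overlapped with both. The IS level was 1.36-fold that of cauda, a log2 difference of 0.45 ± 0.13 (adjusted p = 0.0359), and 0.35 (adjusted p = 0.0483) without cauda replicate 1, the lowest library. The call held in 5 of the 11 fits that left out 1 library, with adjusted p up to 0.0987. It was lost without any 1 of the 4 IS libraries or cauda replicate 2 or 4, with the counts as filed (0.29, adjusted p = 0.196), without the series term (0.0813) and in the 8 libraries held alike by both sources (0.38, 0.0666). It was also lost with no filter on low counts (0.45, 0.0573), in Maj3 alone (0.62, 0.331), in Maj4 alone (0.34, 0.269) and with the replicate block without cauda replicate 1 (0.34, 0.103), in all 13 of 29 alternatives.

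The genes nearest in profile to Scarb1 over the 11 libraries were Cyp4f16 (0.163), Plekho2 (0.164) and Rpl19-ps7 (0.170), against a median of 0.603 over all tested genes. Rpl19-ps7 is a pseudogene of a ribosomal protein gene, whose reads may come from near-identical copies. In the 10 libraries other than cauda replicate 1 the nearest were B630005N14Rik, Anp32e and Ptpn22. Those nearest to Scarb2 were Pik3ap1 (0.0973), Tbc1d23 (0.101) and Nrp1 (0.110), against a median of 0.499. Nrp1 averaged 61.3, 49.4 and 48.4 RPKM in IS, caput/corpus and cauda. In those 10, Tbc1d23 was again among the 3, with Ppid and Eif4a2.

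Cd68 (ENSMUSG00000018774) was not called between any regions by edgeR. The levels were 886, 913, 613 and 567 RPKM in the IS libraries, 868, 666 and 505 RPKM in those of caput/corpus, and 664, 783, 519 and 521 RPKM in those of cauda, and the regions overlapped. The log2 difference was 0.03 ± 0.11 (adjusted p = 0.969) between IS and caput/corpus and 0.24 ± 0.10 (adjusted p = 0.146) between IS and cauda. DESeq2 called the latter (0.29, adjusted p = 0.0152). Cd68 differed instead between the title series, since the 5 Maj3 libraries lay at 664 to 913 RPKM and the 6 Maj4 libraries at 505 to 666.

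Olr1 (ENSMUSG00000030162), the lectin-like receptor for oxidized LDL best known from endothelium, was low throughout, with 0 to 132 reads in a library. The IS libraries measured 0.249, 0.0213, 1.18 and 0.363 RPKM, those of caput/corpus 0.216, 0.473 and 0.611 RPKM, and those of cauda 0, 1.27, 2.02 and 0.516 RPKM. All 3 regions overlapped. No comparison was called, and the log2 difference between IS and cauda was -1.42 ± 1.27 (adjusted p = 0.514), or -1.76 ± 0.85 (0.176) without cauda replicate 1. In that library its count of 0 allows up to 0.0296 RPKM.

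Lrp1 (ENSMUSG00000040249), the endocytic receptor for Apoe, protease-inhibitor complexes and, together with calreticulin, dying cells, was called in no region comparison and separated the libraries by title series. The levels were 19.3, 17.3, 53.5 and 63.8 RPKM in the IS libraries, 16, 32.5 and 57.6 RPKM in those of caput/corpus, and 22.3, 18.8, 58.6 and 61.7 RPKM in those of cauda. The 5 Maj3 libraries lay at 16 to 22.3 RPKM and the 6 Maj4 libraries at 32.5 to 63.8, with no overlap. Within Maj3 the region means were 18.3, 16 and 20.6 RPKM for IS, caput/corpus and cauda, and within Maj4 they were 58.7, 45.0 and 60.1. The log2 difference between IS and cauda was -0.11 ± 0.16 (adjusted p = 0.712), and that between cauda and caput/corpus 0.40 ± 0.18 (adjusted p = 0.406).

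The title series was tested as a term of the same edgeR fit. It was called for 3 of the 8 members, against 20.3% of all tested genes, and for 4 without cauda replicate 1, against 30.4%. Lrp1 was higher in Maj4 by 1.59 ± 0.14 on the log2 scale (adjusted p = 0.000121), a 3.01-fold difference that was called in all 11 fits that left out 1 library. Cd68 was lower in Maj4, at -0.54 ± 0.09 (adjusted p = 0.00246), also called in all 11. Msr1 was lower in Maj4, at -0.47 ± 0.13 (adjusted p = 0.0299), called in 4 of 11 (adjusted p up to 0.105). Marco, at -3.91 ± 1.99 (adjusted p = 0.212), was called only without cauda replicate 1 (-5.24, adjusted p = 0.034).

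Above 1000 bases the series difference moved with gene length. Lrp1, at 18050 bases in the deposited table, is the longest of the 8 genes and Cd68, at 1449 bases, the shortest. Over all tested genes the median log2 difference of Maj4 minus Maj3 was -0.03 for the 1286 genes up to 1000 bases and -0.28 for the 2475 genes over 1000 and up to 2000 bases. It was 0.62 for the 1445 genes over 8000 and up to 16000 bases, and 0.88 for the 111 longer genes. In that longest class the middle 50% of genes lay between 0.41 and 1.24, below Lrp1. Msr1, at 4002 bases, lay at -0.47, below the middle 50% of the class over 4000 and up to 8000 bases (-0.20 to 0.68). Its length is at the border of the class over 2000 and up to 4000 bases. There the middle 50% lay between -0.45 and 0.25, so Msr1 was close to the lower quartile. Reads of the count files that were not uniquely aligned made up 27.6% to 35.8% in Maj3 and 12.5% to 14.7% in Maj4. The part of length or alignment in the values of single genes was not tested. The regions are compared within series here, because the series is a covariate and each series holds all 3 regions, although Maj3 has a lone caput/corpus library.

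**Figure D4:**
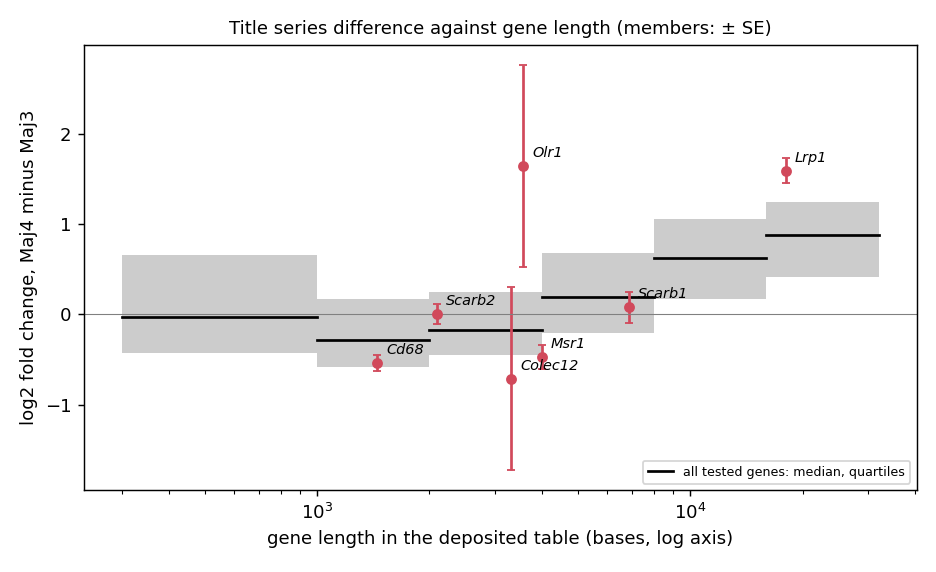
Log2 fold change of Maj4 minus Maj3 against gene length in bases (log axis); red points are 7 of the 8 receptors with SE bars, Marco at -3.91 is left out of the plot for its wide error, and black lines and grey boxes are the median and quartiles of all tested genes in a length class. Above 1000 bases the medians rise from -0.28 to 0.88 with length, and Lrp1 lies above the quartiles of its class. Msr1, at the short edge of its class, lies below the quartiles of that class and close to the lower quartile of the next shorter class. Cd68 lies within the quartiles of its own class.

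Of all tested genes, 16.5% were called between IS and cauda and 3.78% between IS and caput/corpus. Other scavenger receptors, from a list of 14 of which 12 were tested, gave 2 genes higher and 1 lower in IS than in cauda, with 9 not called. Their median log2 difference was 0.40, against 0.05 for all tested genes. Stab1, an endocytic receptor of sinusoidal endothelium and tissue macrophages, measured 109, 94.4, 219 and 151 RPKM in IS and 15.5, 23.0, 64.3 and 37.1 in cauda, with caput/corpus between at 58.0 to 79.4. Its difference between IS and cauda was 2.11 ± 0.25 (adjusted p = 0.000453). Between IS and caput/corpus it was the 1 gene of the list that edgeR called with all libraries (1.12 ± 0.27, adjusted p = 0.0475), while DESeq2 called 2. In the fit without cauda replicate 1, edgeR also called Cxcl16 there (0.66, adjusted p = 0.038). Cxcl16, a membrane chemokine that also binds oxidized LDL, was 1.15 ± 0.16 higher in IS than in cauda (adjusted p = 0.000835). Cd163, the haemoglobin-haptoglobin receptor, was lower in IS, averaging 18.6 ± 5.54 RPKM there and 49.0 ± 19.1 in cauda. The log2 difference was -1.37 ± 0.35 (adjusted p = 0.0255). Cd36 (0.49 ± 0.31, adjusted p = 0.341) and Mrc1, the mannose receptor (0.30 ± 0.15, 0.201), were not called. On leaving out cauda replicate 1, Scarf2 was called as well (2.22, adjusted p = 0.0016), which gave 3 higher and 1 lower.

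Of a list of relatives of Lrp1, 1 of the 9 tested genes was higher in IS than in cauda and 0 were lower by edgeR, where 16.5% of all tested genes were called in either direction, and DESeq2 called 4. The median log2 difference was 0.75 against 0.05 for all tested genes. The called gene, Lrp4, was low, averaging 0.802 ± 0.619 RPKM in IS and 0.131 ± 0.0845 in cauda (adjusted p = 0.031). Without cauda replicate 1, 2 were higher in IS, Lrp4 and Lrp6 (0.75, adjusted p = 0.0127), and 1 was lower. Of 10 partners and adaptors, among them the Lrp1 chaperone Lrpap1 and the endocytic adaptors Dab2 and Gulp1, edgeR called Pdzk1 alone between IS and cauda with all libraries (adjusted p = 0.000368), while DESeq2 called 3. Dab2 was called as well without cauda replicate 1 (0.37, adjusted p = 0.024). Pdzk1, the scaffold that holds the Scarb1 protein at the cell surface of hepatocytes and is also found in epithelia, had 1.11 to 2.91 RPKM in IS, 0.452 to 1.91 in caput/corpus and 0 in 3 of the 4 cauda libraries, with 0.0213 in the other. The summed RPKM of 13 markers of epididymal epithelium followed the same order, at 945 to 2280 in IS, 232 to 461 in caput/corpus and 11.5 to 30.4 in cauda. Of the 13, 10 were called higher in IS than in cauda (11 without cauda replicate 1), and 5 had 0 reads in cauda replicate 1. Single markers did not all follow the sum. Between IS and caput/corpus 6 were higher in IS, 6 were not called and 1 was lower, against 3.78% of all tested genes called. The lower one, Lcn5, averaged 1.31 RPKM in IS and 65.6 in caput/corpus. The part of epithelial RNA in these values was not tested.

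**Figure D5:**
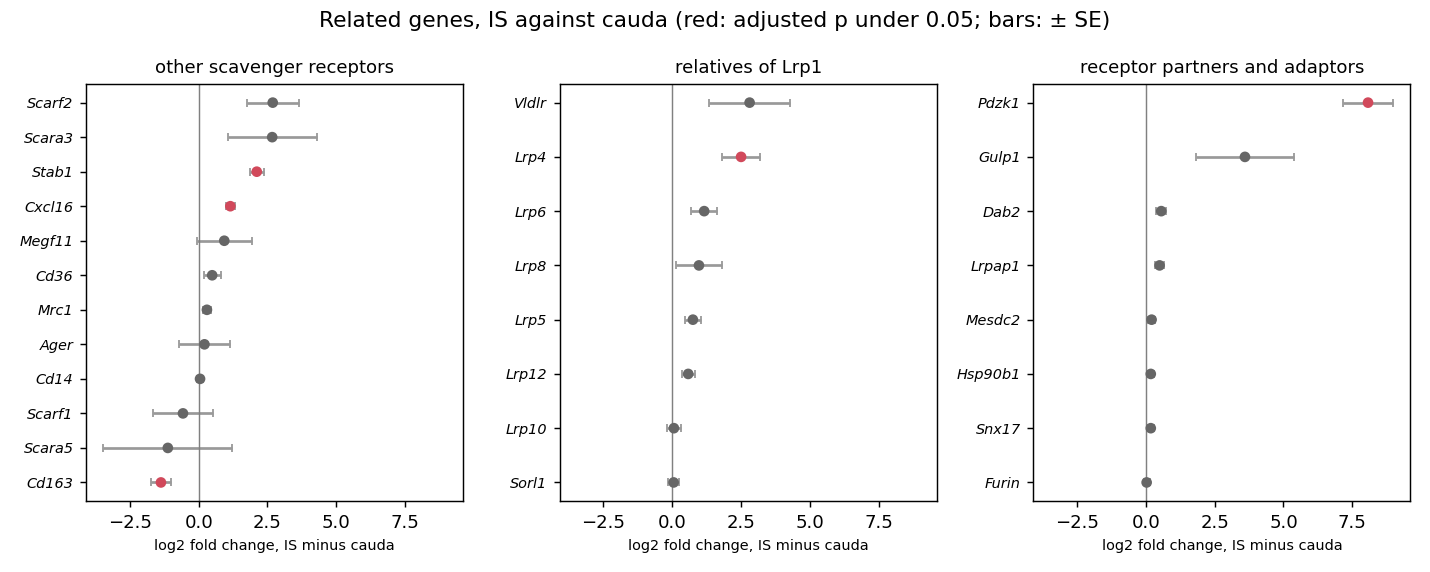
Log2 fold change of IS minus cauda (points) ± SE (bars) for tested genes of 3 lists, other scavenger receptors, relatives of Lrp1, and receptor partners and adaptors; red points have an adjusted p under 0.05. The called genes are Stab1, Cxcl16, Lrp4 and Pdzk1 on the higher side and Cd163 on the lower side; the position of Pdzk1 rests on near-absent cauda reads and is not a bound.

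Among 11 ligands of these receptors, 10 were tested, and 4 were higher and 2 lower in IS than in cauda. The share called over all tested genes was 16.5% there and 3.78% between IS and caput/corpus. Apoe, the lipoprotein ligand of Lrp1 and its relatives, was the most abundant of those called, with means of 18329 ± 3814 RPKM over the 4 IS libraries, 9093 ± 5193 over the 3 of caput/corpus and 4122 ± 811 over the 4 of cauda. Its difference between IS and cauda was 2.13 ± 0.24 (adjusted p = 0.000355). Grn, the progranulin gene, was 0.58 ± 0.14 higher in IS (adjusted p = 0.0182). Plat was also higher (adjusted p = 0.0456), with reads in 1 of 4 cauda libraries. Psap, the prosaposin gene, was lower in IS, at -0.44 ± 0.11 (adjusted p = 0.022). Lpl, the lipoprotein lipase gene, was lower too, at -1.05 ± 0.31 (adjusted p = 0.0467) and was not called without cauda replicate 1 (0.0584). Between IS and caput/corpus edgeR called 0 of the 10 with all libraries, with 4 at an unadjusted p under 0.05, and DESeq2 called 2. With cauda replicate 1 left out, edgeR called Apoe higher (0.99, adjusted p = 0.0184) and Psap lower (-0.36, adjusted p = 0.0467) in IS than in caput/corpus.

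Of 14 transcriptional regulators of macrophage and lipid genes, 4 were higher and 2 lower in IS than in cauda by edgeR, against 16.5% of all tested genes called. Between IS and caput/corpus edgeR called 0 with all libraries, against 3.78% of all tested genes. There 5 had an unadjusted p under 0.05, and DESeq2 called 2. Srebf2 was called lower in IS there without cauda replicate 1 (-0.65, adjusted p = 0.0357). Srebf2, the regulator of cholesterol synthesis genes, measured 23.0, 20.9, 27.7 and 41.3 RPKM in IS and 56.0, 61.9, 67.5 and 71.5 in cauda, without overlap (-1.22 ± 0.15, adjusted p = 0.000577). Nfe2l2, the regulator of antioxidant genes, was 0.89 ± 0.13 higher in IS (adjusted p = 0.00131). The macrophage factor Maf was 0.87 ± 0.17 higher (adjusted p = 0.00641), and the lysosomal regulator Tfe3 was higher as well (0.49 ± 0.11, adjusted p = 0.0144). Tfeb was lower, at -0.44 ± 0.13 (adjusted p = 0.0472), a call lost without cauda replicate 1 (0.0776). Spi1, the PU.1 gene, was not called by edgeR (-0.08 ± 0.09, adjusted p = 0.593).

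Immediate early genes, which respond quickly to stress and growth signals, were lower in IS: 12 of 13 in each of the comparisons with caput/corpus and with cauda, and 0 higher. These were 13 and 11 without cauda replicate 1. The shares of all tested genes called were 3.78% and 16.5%, and 9.02% and 20.8% without that library. Fos, the AP-1 subunit, averaged 697 RPKM in IS and 1534 in cauda (-1.14 ± 0.20, adjusted p = 0.00399). Their summed RPKM was 3048 to 6721 in IS, 6919 to 10013 in caput/corpus and 4604 to 12189 in cauda.

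Markers of several cell types differed along with the receptors. Of 11 macrophage markers, 7 were higher in IS than in cauda and 2 were lower, where 16.5% of all tested genes were called. Among the higher were Mertk (2.00, adjusted p = 0.000594) and Cx3cr1 (1.34, adjusted p = 0.00101), the gene that drives EGFP in these mice. Cx3cr1 is also the gene by whose product the labels name the sorted cells. The lower ones were Lyz2 (-0.67, adjusted p = 0.0207) and Ptprc (-0.40, adjusted p = 0.0493). Without cauda replicate 1, 8 were higher and 1, Lyz2, was lower, while the counts of the next 3 lists were equal in both fits. Of 7 conventional dendritic cell markers 5 were lower in IS and 0 higher, with summed RPKM of 147 to 304 in IS, 643 to 935 in caput/corpus and 532 to 1281 in cauda. Monocyte markers gave 6 of 7 lower in IS, with sums of 161 to 356, 517 to 841 and 726 to 1091 RPKM. Mast cell markers gave 8 of 8 lower, with sums of 26.0 to 99.2, 620 to 890 and 886 to 3459 RPKM. None of the dendritic cell, monocyte or mast cell markers was at 0 in any library. The part of cell composition in the differences of Msr1, Scarb1 and Scarb2 was not tested.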

How the data were processed

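Per the labels' protocols, RNA came from a PicoRNA kit, and SMARTer v4 libraries were read on a HiSeq2500 instrument. The authors' processing used STAR, HTSeq and edgeR with genome build mm9, per the submitters' processing notes, which give neither versions nor settings. Read counts for each Ensembl gene were deposited as 1 file a sample, made without regard to strand per the file names. The deposited RPKM values, per the file headers, come with each gene's length in bases, an other value used only to recover reads. Every RPKM value times its length was a whole multiple of 1 step per column (tolerance 0.001), so the reads behind all 11 columns were recovered. Of the columns, 8 equalled their own count file and 10 equalled some count file. These reads were tested with edgeR 4.0.16 in R 4.3.3: filterByExpr by region, TMM, title series as covariate, all 11 libraries in 1 fit. DESeq2 1.42.0 and limma 3.58.1 on log2(RPKM + 1) were among the alternatives, as were the counts as filed and fits without each library. Samples with the same number within a series had correlations of -0.383 to 0.317 between their deviations from the region and series means. With so few libraries this cannot show whether the numbers pair the samples, and the main fit did not pair them. The 8 members, 6 lists of related genes and 11 cell type lists were chosen with earlier results of these data known. Named were all members, up to 4 called genes of each list with the smallest adjusted p, the 3 nearest genes of each called member, and genes named after their values were seen: Cd36, Mrc1, Spi1, Scarf2, Lrp6, Plat, Lpl, Tfeb, Lyz2 and Ptprc. A few genes of the lists are counted but not reported by name here. The lists of neutrophil, smooth muscle, sperm and lymphocyte markers gave 1, 1, 0 and 2 genes higher in IS than in cauda and 0 lower, of 1, 6, 2 and 7 tested. In that comparison 16.5% of all tested genes were called. Of the 8 neutrophil markers only 1 passed the filter on low counts, and the other markers had few or no reads. None of the 8 members shares exonic bases with another gene in GENCODE M21, a later annotation than that of the files. Limits from counts of 0 use 3 reads and cover counting error only, since reads carry no molecular identifiers.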

Additional observations from a re-analysis of the deposited data

Results flagged for a closer look

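Among the 4 cauda libraries, replicate 2 lay apart for Msr1, at 22.8 RPKM against 14.9 to 16.1 in the other 3. Its gap to the nearest library was 0.847 of the range, above the 95% critical value of Dixon's test for 4 values, and it was the only value marked in 16 groups tested, where chance marks about 1 in 20. It remained below every caput/corpus library. The count file deposited under IS replicate 2 equals no expression column and was used in no comparison above other than that with the counts as filed. It holds 30383072 reads on genes, with 27201 for Cd68, 7912 for Lrp1, 3098 for Msr1, 3089 for Scarb2, 2392 for Scarb1, 205 for Colec12, 63 for Olr1 and 0 for Marco.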

How the results depend on the processing

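Over the alternatives, 611 of the fitted member differences kept their direction and side of the threshold, 47 lost a call, 4 gained one and 17 reversed, none of the 17 called; the cause was not tested. Reversed values for Olr1, IS minus caput/corpus, were -0.18, -0.67 and -0.11 without IS replicate 1, IS replicate 3 and caput/corpus replicate 2 (range -0.67 to 0.41 on leaving out 1 library), -0.70 in Maj3 alone, -0.08 by limma on log2(RPKM + 0.1) and -0.32 with the replicate block without cauda replicate 1. Cd68 reversed to -0.07 without caput/corpus replicate 3 (range -0.07 to 0.13) and to -0.07 with the counts as filed, Colec12 to -0.05 in Maj3 alone and Marco to -0.19 as filed. For IS minus cauda, Marco was -0.10 by DESeq2, -0.96 without cauda replicate 1 (range -0.96 to 3.42 on leaving out 1 library; -0.95 with TMM over all genes, -0.26 with the replicate block and -0.96 with robust estimation) and -1.04 as filed, and Lrp1 was 0.01 as filed. The counts of all genes called, in the order IS against caput/corpus, IS against cauda and cauda against caput/corpus, were 571, 2488 and 93, and leaving out 1 library gave 234 to 1353, 1641 to 3124 and 29 to 205. They were 1268, 3595 and 632 by DESeq2, 233, 1481 and 83 without the series term, 0, 30 and 5 in Maj3 alone, 457, 1144 and 28 in Maj4 alone, 914, 1965 and 8 in the libraries of each 2 regions, and 934, 3068 and 143 by limma on log2(RPKM + 1). On the counts as filed, calls by edgeR numbered 0, 4 and 0 (1166, 3098 and 992 at an unadjusted p under 0.05; no other tool was run on them), and in the 8 libraries both sources hold alike 954, 2409 and 52. For cauda against caput/corpus no filter gave 184 and limma with 0.1 added gave 188. Without cauda replicate 1, TMM over all genes gave 1352 and 207 and robust estimation 1357 and 202 for the comparisons with caput/corpus. The replicate block gave 398, 2362 and 41, and 148 for the last without cauda replicate 1. Of the members, 0 to 1, 1 to 3 and 0 to 1 were called on leaving out 1 library. For IS against cauda, DESeq2 called 5, Maj4 alone 1, the 8 libraries 1, and Maj3 alone and the counts as filed 0. For IS against caput/corpus 0 were called without the series term, in Maj3 alone and as filed. For cauda against caput/corpus 0 were called, the call of Msr1 being lost, without the series term, with the replicate block, in the libraries of both regions, in either series alone, by limma without filter, as filed, in the 8 libraries and with TMM over all genes. The replicate block with all libraries changed no other call of a member. TMM over all genes, the replicate block and robust estimation with cauda replicate 1 left out were added after seeing the data. Few reads limit the precision for Marco, Olr1 and Colec12, which had 0 reads in 6, 1 and 1 of the 11 libraries; for the last 2 that library was cauda replicate 1, which had 29712956 reads on genes.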
